A study of Homo sapiens with 10 samples.

Results

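The regions described here are 838 m6A peaks, in 404 genes, that were called in both hypoxia libraries and lie in genes with no normoxia peak. They were chosen by the peak calls of the hypoxia and normoxia lists themselves. They are the peaks of hypoxia replicate 1 that share at least 1 base of their exon blocks, on the same chromosome and strand, with a peak of hypoxia replicate 2, in genes absent from both normoxia replicate lists and from the normoxia condition list. The rule goes by gene name: 4 regions were overlapped by a normoxia peak named for another gene. For 7 regions every replicate 2 partner had another gene name, and 16 regions shared bases with another region. The 838 make up 29.1% of the 2879 peaks of hypoxia replicate 1, of which 47.4% had a replicate 2 partner. The 7 deposited lists hold 26273 rows. The labels give V16A, a castration-resistant prostate cancer cell line, for all samples. The pulled-down libraries, made by MeRIP-seq (antibody capture of RNA fragments that carry m6A), were 2 of hypoxia, 2 of normoxia and 1 whose label reads EU 40min. The labels give no oxygen level, length of exposure or origin of the replicates, and for the EU sample neither the oxygen condition nor what EU stands for.

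m6A is a methyl group on the adenosine base of RNA, placed mostly on messenger RNA in the nucleus by the METTL3 and METTL14 complex and read by proteins that act on splicing, export, translation and decay. It is most often found near the stop codon, in long internal exons and in the last exon, and within short motifs such as GGAC, where the A is methylated. A peak list says where enrichment was called. It does not measure how much of a transcript is methylated, nor how much of the transcript the cells hold, and a gene without a called peak is not thereby unmethylated.

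The lists differed in length: normoxia replicates 1 and 2 had 212 and 1563 peaks, hypoxia replicates 1 and 2 had 2879 and 6621, and the EU list had 5044. The absence of a normoxia peak, which chose these regions, therefore rests on shorter lists. Library depth is unknown from peak lists, and the input libraries were not used here. Marker genes of other cell types were looked up in the same lists. Of 18 T and NK cell markers, 11 and 13 had a peak in hypoxia replicates 1 and 2, 6 and 0 in normoxia replicates 1 and 2, and 12 in the EU list. Of 15 prostate and epithelial markers, 3 and 5 had a peak in the hypoxia replicates, 2 and 7 in the normoxia replicates, and 9 in the EU list, where KLK2 and KLK3 were among them. No macrophage marker had a peak in the 5 libraries, and 1 fibroblast or endothelial marker had one, in hypoxia replicate 2. T and NK cell markers do not belong to a prostate cell line, so the peaks of both hypoxia libraries, normoxia replicate 1 and the EU library go against the labelled cell type in part. The regions include T cell receptor genes (TRDC, TRGC1, TRGV9), CD3D, CD3E and PRF1. Where these transcripts came from, and their part in the choice of the regions, was not tested. Without the genes of the T cell receptor signalling list and the T and NK cell markers, 804 regions in 388 genes remained. TRDC, TRGC1 and TRGV9 are in neither list, so their regions stayed in that count. It therefore does not show how many regions lie in genes of T cells.

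Some of the regions reach the first bases of their transcript or contain an annotated microRNA, and their sequences can be shown from RefSeq (GRCh38.p14, the same coordinates as hg38). In 29 genes counted here a region covered part of the first 50 transcribed bases of the RefSeq gene. GGAC on the transcribed strand was in 7 of these 29 stretches (24.1%), against 18.9% of 34943 such stretches of all RefSeq genes in the table. In 5 of the 7 the motif itself lay under the peak, and the 30 bases around it are shown, 5′ to 3′, with GGAC in capitals. The first transcribed base was A in 8 of the 29 (27.6%), against 44.4% of all. S100A11 was not counted among the 29: its region covered all 50 bases, which held no GGAC and did not start with A. RAC2 and TRGV9, named below among the regions nearest a RefSeq start, are not among the 29 either. The 29 may therefore not be every such gene. A match is a description of the letters and not a measured site.
PSMB8, chr6:32844007-32844036, minus strand: ctcctccgagagcGGACagatctctgggtg
PFN1, chr17:4948492-4948521, minus strand: ggagccgcggtccGGACggcagcgcgtgcc
OST4, chr2:27071605-27071634, minus strand: gctggtggcgtcggagccgagccGGACtgg
DTYMK, chr2:241686775-241686804, minus strand: agcggcgggcggtGGACagtcatggcggcc
FTL, chr19:48965329-48965358, plus strand: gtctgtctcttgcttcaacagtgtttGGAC

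PSMB8 encodes a subunit of the immunoproteasome, PFN1 the actin-binding protein profilin, OST4 a small subunit of the oligosaccharyltransferase, DTYMK thymidylate kinase and FTL the ferritin light chain. The regions at PSMB8, PFN1 and FTL shared bases with an EU peak, and those at OST4 and DTYMK did not. The OST4 region, 144 bases at chromosome 2, 27071582 to 27071725, had the same bounds in both hypoxia replicates.

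Annotated microRNAs lay in 3 further regions, in DDX5, EBNA1BP2 and PSME2, on the strand of the host gene. The DDX5 and EBNA1BP2 regions covered the whole hairpin and the PSME2 region 73 of its 77 bases. Their mature sequences are shown with the seed, bases 2 to 8, in capitals.
hsa-miR-3064-5p, in DDX5, chr17:64500817-64500837: uCUGGCUGuuguggugugcaa
hsa-miR-3064-3p, in DDX5, chr17:64500775-64500797: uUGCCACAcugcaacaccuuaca
hsa-miR-6733-5p, in EBNA1BP2, chr1:43171686-43171707: uGGGAAAGacaaacucagaguu
hsa-miR-6733-3p, in EBNA1BP2, chr1:43171652-43171671: uCAGUGUCuggauuuccuag
hsa-miR-7703, in PSME2, chr14:24143489-24143511: uUGCACUCuggccuucucccagg

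No seed was shared among these 5. The peak lists cannot tell fragments of the host transcript from fragments of the microRNA precursor. DDX5 is an RNA helicase, EBNA1BP2 a nucleolar protein of ribosome assembly and PSME2 a subunit of the proteasome activator PA28. The PSME2 region, chromosome 14, 24143461 to 24143561, had the same bounds in hypoxia replicate 1, hypoxia replicate 2 and the EU list. The DDX5 and EBNA1BP2 regions had no EU peak.

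About as many genes held several regions as held 1. Of the 404 genes, 203 (50.2%) held 1, 80 held 2, 66 held 3, 24 held 4, and the others held 5 to 9. Of all 1258 genes with a replicate 1 peak, 42.8% had only 1 such peak. Of the 225 genes with a replicated peak and a normoxia peak, 40.9% had only 1 replicated peak. Among the 404 genes, those with 3 or more regions held 475 of the 838. The most were in PREX1, an exchange factor that activates the small GTPase Rac, with 9, then SOS1, an exchange factor for Ras, and STK10, a kinase abundant in lymphocytes, with 8 each. MSN, which encodes moesin, a link between actin and the plasma membrane, PPP1R18, a regulatory subunit of protein phosphatase 1, IVNS1ABP, a kelch-repeat protein, and PTP4A2, a phosphatase, had 7 each. IQGAP1, a scaffold protein of the actin cytoskeleton, was 1 of 8 genes with 6, beside RAC2, a Rac GTPase of blood cells, and HCLS1, an actin regulator of blood cells.

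**Figure D1:**
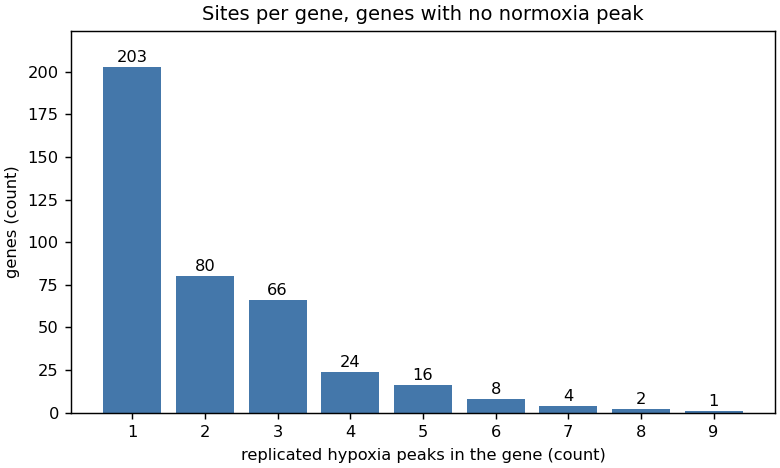
Number of genes (vertical axis, count) by the number of replicated hypoxia peaks they hold (horizontal axis, count), for the 404 genes with no normoxia peak. There were 203 genes with 1 peak, and the bars fall to 1 gene with 9.

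In genes with many regions, the counts of peaks were not equal in the 2 hypoxia lists. PREX1 had 9 peaks in hypoxia replicate 1, 14 in replicate 2, 12 in the hypoxia condition list and 0 in the EU list. SOS1 had 10, 9, 9 and 7 in the same order. STK10 had 10, 9, 9 and 5. In these 3 genes the EU list was the lowest, and in PREX1 it was empty. MSN had 7, 5, 4 and 8, so here the EU list was the highest. IVNS1ABP had 8, 10, 7 and 0, PTP4A2 had 7, 10, 5 and 0, and IQGAP1 had 9, 11, 11 and 0. PPP1R18 had 7, 3, 3 and 3. Other genes differed more between the hypoxia replicates: RNF213 had 8 and 28 peaks, and DOCK2 had 8 and 1. Over all 404 genes there were 1085 peaks in hypoxia replicate 1, 1522 in replicate 2, 1430 in the hypoxia condition list and 499 in the EU list. In 258 genes every replicate 1 peak had a replicate 2 partner. By the rule, each of these genes had 0 peaks in the 3 normoxia lists.

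Peaks of 1 gene were often spread along it. The 9 PREX1 regions lay between 48632338 and 48827833 on chromosome 20, over 195496 of the 263934 bases of the gene, 6 of them across more than 1 exon. In SOS1 the regions spread over 134075 bases of chromosome 2 and all 8 crossed an exon boundary. In MSN, by contrast, 5 of the 7 lay close together near the gene's end, the first starting at 65739842 and the last ending at 65741384 on chromosome X. Among 434 pairs of neighbouring regions in the same gene, the median distance, introns included, was 1667 bases, and 48 pairs were at most 100 bases apart. Joining those neighbours gave 790 clusters, with 7 in STK10, 5 in PPP1R18 and 4 in MSN, while PREX1 kept 9, SOS1 8 and IVNS1ABP 7. Peaks of a gene also shared their deposited p: in 124 of 201 genes with 2 or more regions (61.7%), at least 2 regions had the same p in hypoxia replicate 1, and the 5 clustered MSN regions all had 0.00026. The deposited p is the authors' value for each peak, and its repetition means that it does not rank neighbouring peaks.

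The regions were narrow, and most were wider in hypoxia replicate 2. In replicate 1 the exon-block width had a median of 150 bases, from 92 to 1195, and 721 of 838 (86.0%) were within 1 base of a multiple of 50. The replicate 2 partner, the peak that shared most bases, had a median of 250 bases, from 92 to 2240. That choice favours wide peaks, and 1 partner can serve several regions. Over the full lists the medians were 150 bases in replicate 1 and 151 in replicate 2. The partner was wider than the replicate 1 peak for 567 regions, equal for 147 and narrower for 124. A partner covered 565 regions in full, and 113 had identical blocks in both replicates. The share of 200 bases or more was 36.4% (exact 95% interval 33.1 to 39.8), against 28.9% of all replicate 1 peaks. It was 47.8% (43.5 to 52.2) for the 527 replicated peaks in genes with a normoxia peak and 17.7% (15.5 to 20.1) for the 1056 unreplicated peaks in genes without one. The rule asks for an overlap, so width is not independent of it. Binomial intervals here cover counting error only and treat peaks as independent, which peaks of 1 gene are not.

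**Figure D2:**
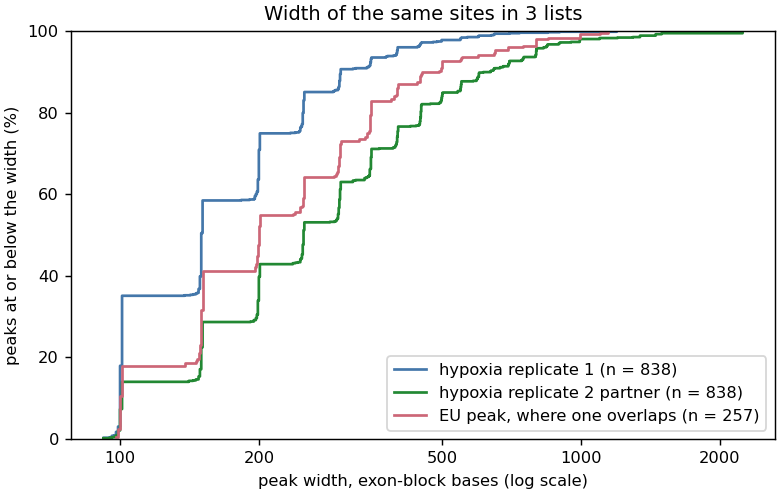
Cumulative share of peaks (vertical axis, %) by width in exon-block bases (horizontal axis, log scale). Curves are for the 838 regions in hypoxia replicate 1, their replicate 2 partners, and the EU peak sharing most bases with each of 257 regions. A partner or EU peak that serves several regions enters its curve once for each. The replicate 2 curve lies to the right, with a median of 250 bases against 150.

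The widest region was in MSN, 1195 bases in 9 exon blocks at chromosome X, 65729485 to 65739059, and its replicate 2 partner had 2240 bases. MCM4, a subunit of the replicative helicase, followed with 898 bases in 8 blocks, and TAP1, which carries peptides into the endoplasmic reticulum for antigen presentation, with 847 bases in 4 blocks. TRDC, the constant segment of the T cell receptor delta chain, had 735 bases in 5 blocks. SFPQ, a splicing factor, had 699 bases in 8 blocks. All 5 were covered by their partner over at least 637 bases. A region in MGAT1, an enzyme of N-glycan synthesis, and one in NCL, which encodes nucleolin, had 649 bases each.

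Exon junctions were common. Of the 838 regions, 383 (45.7%, 42.3 to 49.1) had 2 or more exon blocks, against 35.9% of all replicate 1 peaks. The share was 33.0% (29.0 to 37.2) among replicated peaks in genes with a normoxia peak. By list, it was 35.9% and 36.7% in the hypoxia replicates, 29.7% and 9.92% in the normoxia replicates and 19.8% in the EU list. Regions with 2 blocks numbered 266, those with 3 numbered 80, and the others had 4 to 9. After MSN, SFPQ and MCM4, the most blocks were in DNMT1, the maintenance DNA methyltransferase, with 7 over chromosome 19, 10166682 to 10179917, in the clone-named gene RP11-762I7.5, also with 7, and in LAPTM5, a lysosomal membrane protein of blood cells, 1 of 3 regions with 6. The 572 gaps between blocks had a median of 1044 bases, from 17 to 52582. Multi-block regions had a median width of 199 bases and single-block regions one of 150. The blocks follow an exon annotation that no source used here names, and whether reads crossed each junction cannot be told from the lists.

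Nearly as many regions lay in the last 25% of the gene as in the rest of it. Of the 838, 800, in 373 genes, matched a RefSeq gene span by name and position, and 362 of the genes were protein-coding. Of the 800, 137 (17.1%) had their middle base in the first 25% of the span, 133 (16.6%) in the second, 164 (20.5%) in the third and 366 (45.8%, 42.3 to 49.3) in the last. For replicated peaks in genes with a normoxia peak the last 25% held 43.3% (39.0 to 47.8), and for unreplicated peaks in genes without one 48.3% (45.1 to 51.4), and these intervals overlap. That stretch held 46.8% of hypoxia replicate 1, 48.9% of hypoxia replicate 2 and 54.7% of EU peaks. Within 1000 bases of the span end, or beyond it, lay 134 regions (16.8%), and within 1000 bases of the start, or before it, 98 (12.2%). Matches were allowed up to 10 kb outside a span, and peaks outside were counted in its first or last 25%. Spans include introns and the RefSeq ends, not those of the transcripts in these cells.

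**Figure D3:**
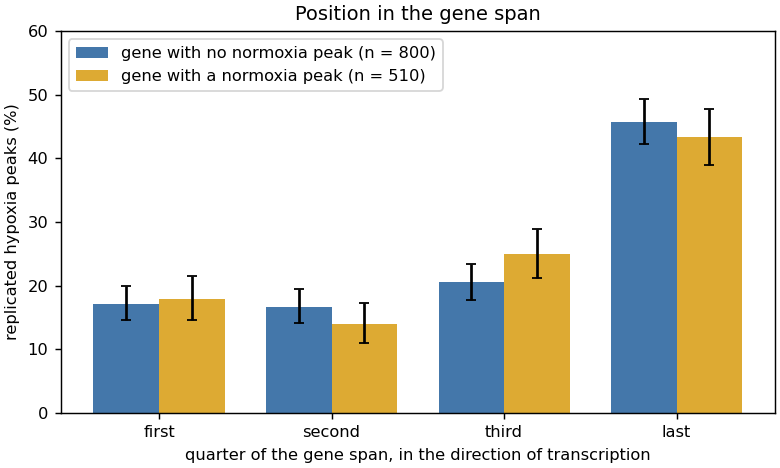
Share of replicated hypoxia peaks (vertical axis, %) in each successive 25% of the RefSeq gene span (horizontal axis), for 800 peaks of genes with no normoxia peak and 510 of genes with one; bars show exact 95% binomial intervals. In both sets the last 25% was highest, 45.8% and 43.3%. Peaks outside the span count in its first or last 25%.

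At the gene ends, the regions nearest the RefSeq start were in OST4, shown above, TRGV9, a variable segment of the T cell receptor gamma chain, ELOVL5, a fatty acid elongase, and RAC2. The middle of the ELOVL5 region lay 18 bases from the start and that of RAC2 19 bases, and neither had an EU peak. Nearest the end were SH3BGRL3, a small thioredoxin-fold protein, at 99 bases, PSME2 at 146, CTSW, a cathepsin of cytotoxic lymphocytes, at 147, and HIST1H2AI, an H2A histone gene, at 148. The PSME2 and CTSW regions shared bases with an EU peak, and the SH3BGRL3 and HIST1H2AI regions did not.

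The EU list was not used to choose the regions, and it is 1 library, so it has no replicate check. Of the 838 regions, 257 (30.7%, 27.6 to 33.9) shared at least 1 base with an EU peak, close to the 28.4% of all replicate 1 peaks. The share was 61.5% (57.2 to 65.7) for the 527 replicated peaks in genes with a normoxia peak, 30.8 percentage points higher, and 9.85% (8.12 to 11.8) for the 1056 unreplicated peaks in genes without one. Taking 1 peak per gene, chosen after seeing the data, gave 29.2% for these regions, 35.2 percentage points under the other replicated genes. With at least 50% of both peaks shared, in the replicate match and in the EU overlap, 476 regions remained. Of these, 21.0% met an EU peak, against 33.3% of 252 replicated peaks in genes with a normoxia peak, a difference of -12.3 percentage points. These differences were not tested over samples, since there was 1 EU library. The overlaps were often partial: 106 of the 257 regions were covered in full by an EU peak and 187 over at least 50% of their bases.

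The sets also differed in how many genes had an EU peak at all. Of the 404 genes, 171 (42.3%, 37.5 to 47.3) had any row in the EU list, against 43.6% of all genes with a replicate 1 peak. Of the 225 genes with a replicated peak and a normoxia peak, 178 (79.1%, 73.2 to 84.2) had one. Within genes with an EU row, 251 of 393 regions (63.9%, 58.9 to 68.6) met an EU peak, against 321 of 432 (74.3%, 69.9 to 78.4), a difference of 10.4 percentage points. In genes with no EU row, 6 regions met an EU peak named for another gene. Expression was not measured here, and the part of transcript levels in these shares was not tested.

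**Figure D4:**
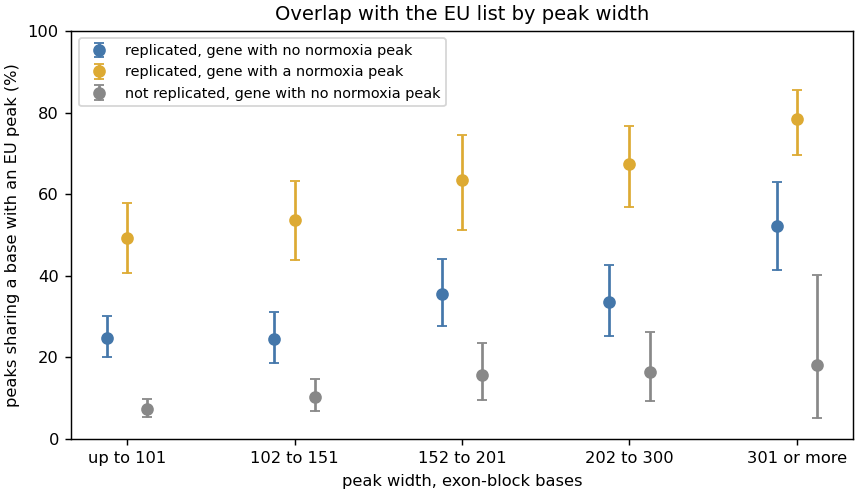
Share of hypoxia replicate 1 peaks that share a base with an EU peak (vertical axis, %) by peak width (horizontal axis, exon-block bases), with exact 95% binomial intervals. At every width the regions described here lie between the other replicated peaks and the unreplicated ones, from 24.8% at up to 101 bases to 52.3% at 301 bases or more.

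Wider regions met an EU peak more often, which a criterion of 1 shared base favours. Over all replicate 1 peaks the share also rose with width, from 18.6% at up to 101 bases to 61.0% at 301 or more. The share was 24.8% for the 294 regions of up to 101 bases, 24.5% for 102 to 151 bases, 35.5% for 152 to 201, 33.6% for 202 to 300 and 52.3% (41.4 to 63.0) for the 88 of 301 bases or more. Replicated peaks in genes with a normoxia peak were higher in each class, from 49.3% to 78.4%. By exon blocks, 30.1% (25.9 to 34.6) of single-block and 31.3% (26.7 to 36.2) of multi-block regions were overlapped. Over all replicate 1 peaks these shares were 30.6% and 24.6%, and for replicated peaks in genes with a normoxia peak 67.4% and 49.4%. Multi-block regions were also wider, so the shares do not compare the 2 kinds at equal width. Of the 120 multi-block regions with an EU peak, 91 shared a gap with it, base for base, and in 0 did an EU block run across the gap. Blocks follow an exon annotation, so these 2 counts cannot tell whether the EU RNA was spliced. Along the gene, the share rose from 21.9% (15.3 to 29.8) in the first 25% of the span to 36.6% (29.2 to 44.5) in the third and was 32.8% in the last. Over all replicate 1 peaks these shares were 22.7%, 33.5% and 29.4%. By the number of regions in the gene, the share was 31.0% for genes with 1, 29.3% with 2 or 3 and 32.1% with 4 or more. All replicate 1 peaks, grouped by their own number per gene, gave 28.6%, 27.4% and 29.5%.

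Genes with several regions varied from none to all under EU peaks. Of 121 genes with 3 or more regions, 61 had none under an EU peak, 49 had some and 11 had all. Of the 121, 57 had no EU row. The genes with all were MSN with 7 of 7, CORO1A, an actin regulator of blood cells, with 5 of 5, EEF1A1, translation elongation factor 1 alpha, with 4 of 4, and, with 3 of 3 each, TAP1, PSMB8, TAPBP, CNN2, HLA-DRB1, ITGA4, KIF21B and STK17B. Among genes with 5 or more regions, none of the 9 in PREX1 met an EU peak, and the same held for IVNS1ABP, PTP4A2, IQGAP1, DDX3X, ARHGAP30, ASPM, ATP2A3, CYTH1, DDX5, FAM129A, HNRNPU, PRF1, RAB11FIP1 and SMC1A. SOS1 had 5 of 8, STK10 4 of 8, PPP1R18 4 of 7 and RAC2 3 of 6. ARHGAP30, a GTPase-activating protein, had 1 EU peak that met none of its 6 regions.

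**Figure D5:**
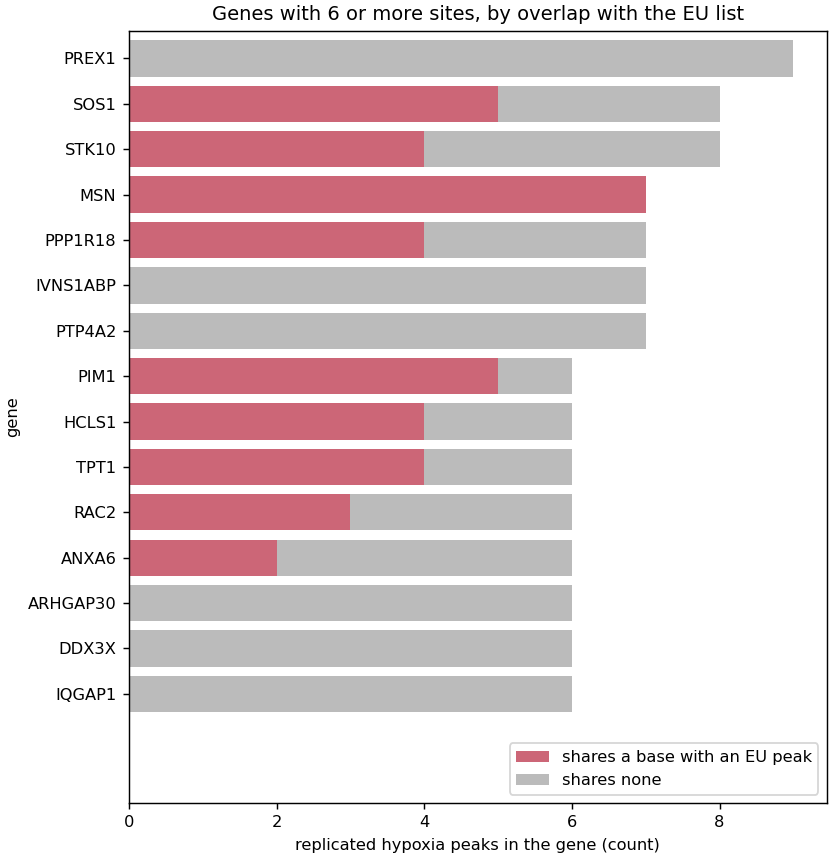
Replicated hypoxia peaks per gene (horizontal axis, count) for the genes with 6 or more (vertical axis), divided by whether they share a base with an EU peak. MSN (7 of 7) is overlapped throughout, and PREX1 (0 of 9) is not overlapped at all.

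Ranked by the EU peak's deposited p, the leading overlaps were in MSN (5e-09), FBXW7, a ubiquitin ligase subunit, RAP2B, a small GTPase (4.3e-08), BCL2L2-PABPN1, a read-through gene, HLA-H, an HLA class I pseudogene, CAP1, an actin regulator, TAP1 and ANP32E, a histone chaperone. HLA-H resembles other HLA genes closely, and reads may have been shared among them. The RAP2B region, chromosome 3, 153163662 to 153163761, lay inside both its replicate 2 partner, 153163562 to 153163960, and the EU peak, 153163612 to 153164010. These are the authors' values and rank peaks within 1 list.

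Histone genes, T cell receptor genes and clone-named genes led the regions by deposited p. In hypoxia replicate 1 the p was 5e-12 for both regions of the clone-named gene RP11-498C9.3 on chromosome 17, 6.3e-11 for HIST1H3I and 1.4e-09 for HIST1H2BL, which encode histones H3 and H2B, 1.7e-09 for TRDC, 3.9e-09 for RP11-124N14.3, 2e-08 for TRGC1, a constant segment of the T cell receptor gamma chain, 4.6e-08 for HIST1H3J and 7.4e-08 for HIST1H4B. The HIST1H3I region, chromosome 6, 27871996 to 27872315, had identical bounds in both replicates. TRDC and RP11-124N14.3 shared bases with an EU peak, and the others of these did not, apart from 2 of the 3 HIST1H3J regions. Histone genes have near-identical copies, among which the counting may have divided reads. In replicate 2 the p was smaller than in replicate 1 for 404 regions and larger for 427.

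Gene lists described the regions by function. In this paragraph and the next, the count of genes is of those with a peak in hypoxia replicate 1; 32.1% of all 1258 such genes held a region, a share set by the rule itself, so nothing is read from it. Counts under an EU peak stand beside 30.7% of all 838 regions, and 63.9% of those in genes with an EU row. Of T cell receptor signalling genes, 13 of 17 held 27 regions, 15 of them under an EU peak. CD3E, a chain of the receptor complex, had 3, with 2 under EU, IL2RG, the common cytokine receptor chain, had 2, with 2, and CD3D and JUN had 1 each, both under EU. CD3D had 1 peak in each hypoxia replicate and 2 in the EU list. The CD3D region spanned 3 blocks at chromosome 11, 118339848 to 118340934. Of the T and NK cell markers, 5 of 11 held 11 regions, 3 under EU: CD3D, CD3E, CD5, PRF1, which encodes perforin, and TRBC2. PRF1 had 5 and 4 peaks in the hypoxia replicates and 0 in the EU list. The lists share CD3D and CD3E. The other 6 markers with a replicate 1 peak, CD2, GNLY, GZMB, IL2RB, NKG7 and TRAC, each had a peak in normoxia replicate 1 and were left out by the rule.

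Antigen presentation and splicing factor genes lay on either side of the 30.7% of all regions under an EU peak, and the former all had an EU row. Of antigen presentation genes, 5 of 9 held 12 regions, and 11 of the 12 lay under an EU peak: PSMB8, TAP1 and TAPBP had 3 each, PSME2 2 and TAP2 1, the last without overlap. The PSMB8 regions had 343, 246 and 246 bases, all of them across exon junctions, at chromosome 6, 32840962 to 32844312. Of SR and hnRNP splicing factors, 11 of 14 held 28 regions and 3 of the 28 lay under an EU peak, while 9 of the 11 genes had no EU row. HNRNPU had 5 regions, HNRNPM and HNRNPAB 4, HNRNPDL 3, HNRNPA3 and SRSF2 1, all without EU overlap, and HNRNPA2B1, also a reader of m6A, had 2, both with it. Chaperones held 8 regions in 4 of 5 genes, with 0 under EU: HSPA8 had 3, HSPH1 and CCT4 2 and DNAJA1 1. Of these 4 chaperone genes, 3 had no EU row. Translation factors held 7 in 4 of 6 genes, with 5 under EU, 4 of them in EEF1A1. The difference between these lists was not tested.

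Nuclear and proliferation genes held regions in several lists, again beside 30.7% under EU over all regions. Chromatin and cohesin regulators held 18 regions in 7 of 10 genes, with 3 under EU: SMC1A, a cohesin subunit, had 5, and DEK, DNMT1 and SATB1 3 each. No EU row was found for 3 of these 7 genes. Cell cycle and replication genes held 14 in 7 of 14, with 4 under EU, MCM4 having 3 and TYMS, ORC1 and RRM2 2 each, and 2 of the 7 had no EU row. Replication-dependent histone genes held 19 in 17 of 30, with 4 under EU, HIST1H3J having 3 and the other genes 1 each. Most of these histone genes, 13 of the 17, had no EU row. Cytosolic ribosomal protein genes held 5 in 4 of 10 genes, RPL35, RPS25 and RPLP2 among them, with 2 under EU. The other lists had few. Of HIF targets, 1 of 4 held 2 regions, both under EU, in BHLHE40, a transcriptional repressor. Immediate early genes held 2 in 2 of 7, in JUN and IER3, both under EU, and m6A factors 2 in 1 of 4, in HNRNPA2B1, both under EU. Of 19 ZNF genes, ZNF195 alone held regions, 2 without EU overlap. No region lay in a prostate or epithelial marker gene, of which 3 had a replicate 1 peak, nor in a macrophage, fibroblast or endothelial marker.

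The hypoxia condition list, of which no source used here states the making, held most of the regions. It overlapped 763 of 838 (91.1%, 88.9 to 92.9), against 60.9% of all replicate 1 peaks and 34.4% of the unreplicated peaks in genes without a normoxia peak. The 75 regions it missed lay in 54 genes, and 21 of the 404 genes had no row in it, among them CORO1A with 5 regions, DPP4, a cell-surface peptidase, with 5 and ELOVL5 with 3. If that list was made from the same reads, it is no independent check.

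The rule's threshold of 1 shared base admitted some neighbours that barely touch. There were 38 regions that shared exactly 1 base with replicate 2 and 2 that shared 2 to 20, while the median was 148 bases. Ranked by p, the first with 1 base were in CLDND1, PPP4R1, HNRNPUL1 and KIAA0101. The CLDND1 region, chromosome 3, 98516209 to 98516358, began on the last base of its partner, and 3 other CLDND1 regions shared 150 to 200 bases. Just outside, 19 of the 1056 unreplicated peaks in genes without a normoxia peak had at most 50 bases between them and a replicate 2 peak on the same strand. The nearest were in RP11-330H6.5, with 18 bases between, and CDC37, SCAF11 and CCT4, with 48 each. Asking for 2 shared bases, chosen after seeing the data, left 800 regions in 394 genes. Of these regions, 29.0% shared at least 2 bases with an EU peak.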

How the data were processed

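Each pulled-down library had 1 deposited peak list, and each oxygen condition had 1 more, in 12 BED columns without a header. Column 5 was read as the authors' p-value of each peak, since it ran from 0 to 0.013 in ascending order. The submitters' processing notes name STAR and hg38. No source used here names the peak caller, its threshold or the annotation. BED starts were raised by 1 base, so positions are 1-based. Overlaps were computed on exon blocks by strand with Python 3.11.15 and pandas 2.3.3, and exact (Clopper-Pearson) 95% intervals with scipy 1.17.1; the overlap code was checked on simulated peaks. Names were matched to RefSeq spans within 10 kb. No test was run: the hypoxia and normoxia lists chose the regions, and the EU sample is 1 library. Regions and gene lists were chosen with earlier results of these data known. Genes were named by a rule: those with the most regions, smallest p, greatest width, most blocks, strongest EU overlap, nearest gene ends, up to 4 per list, and those nearest the overlap threshold; other genes were named after their values were seen. Alternatives changed the overlap, the lists and the replicates. Values of some single genes are not reported here.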

Additional observations from a re-analysis of the deposited data

How the results depend on the processing

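Of 115 alternatives over 8 results, 88 stayed near the reported value, 27 moved and 0 reversed. The 19 added ones were chosen after seeing the data. With at least 50% of both peaks shared, in the replicate match and in the EU overlap, there were 476 regions. Of them, 39.5% were in genes with 1 region, 43.9% had 200 bases or more and 21.0% were under an EU peak. The difference from the other replicated peaks was -12.3 percentage points. With 50% of the replicate 1 peak shared in both overlaps, 735 regions remained and 23.7% were under an EU peak. With the 50% of each list at the smallest p there were 295 regions in 144 genes, 42.4% of 200 bases or more and 20.3% under an EU peak. Starting from hypoxia replicate 2, 62.1% had 200 bases or more and 53.3% had 2 or more blocks. Choosing by no overlapping normoxia peak, whatever the gene, gave an EU difference of -44.0 points. Genes with an EU row gave 63.9% under an EU peak and a difference of -10.4. With 1 peak per gene, 43.3% had 200 bases or more. Leaving out 1 replicate at a time gave 875 to 4885 regions (4885 without hypoxia replicate 1 and 1894 without replicate 2), in 419 to 1587 genes, since dropping a hypoxia replicate drops the demand for replication. Over the same runs, 10.0% to 24.7% were in genes with 1 region, 26.0% to 37.2% had 200 bases or more, 16.2% to 31.3% were under an EU peak and 39.5% to 45.5% had 2 or more blocks. The EU difference ran from -32.0 to -27.4, and the last 25% of the gene held 45.6% to 49.2%. No paired analysis was possible because the results come from no test. The lists give no read counts, so what depth limits is unknown.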
